A study of Mus musculus with 6 samples.

Results

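The complement system was followed here through 33 genes of mouse liver RNA: the components of its activation pathways, the terminal pore-forming proteins, the regulators and the receptors. The genes were taken by symbol from a list of complement components and regulators, and all 33 were found, each once, among 34352 genes with a symbol. 28 of the 33 reached 1 FPKM (fragments scaled to gene length and to the library's total, so that levels can be compared between genes) in at least 3 of the 6 libraries and entered the test, with 9908 genes in all. The 5 below that level, Cfd, C7, Cd46, C3ar1 and C5ar1, are given as values.

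The libraries came from livers of wild-type C57BL/6 mice, which the labels describe as males of 6 to 8 weeks at housing. For 90 days the cadmium group (3 libraries) was given 20 mg/kg of CdCl2 by gavage each day, and the control group (3 libraries) 0 mg/kg. All 6 libraries are the input fraction of an experiment on N6-methyladenosine, a methyl mark on RNA, and the labels define input as RNA fragments that the antibody against the mark left unbound, so a level and the share left unbound cannot be told apart. The labels assign 6 mice to each group and do not say which mice gave which library, so p-values refer to the spread among the 3 libraries of a group, which may be technical. Values below are listed in the order of replicates 1, 2 and 3, and means are given ± SD with n = 3.

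Recovered read totals ran from 42115960 to 68587128 per library, and the 33 genes took 1.39% to 1.93% of them. Xist, which coats the silenced X chromosome of female cells, was at 19.7 to 35.5 FPKM and the Y-linked Kdm5d and Uty were at or near 0 in all 6 libraries, which goes against the male label. Control replicate 1 and cadmium replicate 2 held 2.87% and 2.91% of reads in Alb, and the other 4 libraries 4.89% to 5.06%. Mt1, a metallothionein gene induced by cadmium, was at 7.39 to 41.3 FPKM in control and 378 to 729 in cadmium, as the group labels have it. Over all tested genes the median log2 fold change was 0.090 in FPKM and -0.0021 after median-of-ratios scaling and -0.061 in the deposited log2 values, so part of a small positive value is shared by all genes. The hepatocyte markers identified the tissue, with Alb at 14969 ± 4095 FPKM without and 15106 ± 4320.0 with cadmium.

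Complement is a cascade of plasma proteins that tag and lyse cells and call in phagocytes. The classical pathway starts when C1q binds antibody or dying cells, the lectin pathway when mannose-binding lectins or ficolins bind sugars, and the alternative pathway turns over spontaneously and amplifies the others. All routes cleave C3, then C5, and end in a pore built from C5b, C6, C7, C8 and C9. Hepatocytes secrete most of the plasma components, and many of these are acute phase proteins, whereas C1q, properdin and the anaphylatoxin receptors are products of myeloid cells.

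The start regions of the genes were searched for the letters of motifs of liver, acute phase, macrophage and metal-responsive factors, on both strands, in 300 bases per start site (250 before and 50 after, RefSeq, GRCm38.p6). The table matched 25 of the 33 genes with 27 start sites, and C4b and C1qa are not among them. A match is a run of letters and not a shown binding site. GTTAAT, part of the HNF1 site, was found in 9 of 27 (33.3%) against 7.10% of all 32851 start regions, among them those of C1ra, C8a, C8b, Hc and Vtn. TTNNGNAAT, a C/EBP site, was found in 9 of 27 (33.3%) against 11.5% of all, and TTCNNNGAA, the STAT site, in 5 of 27 (18.5%) against 8.30% of all. The interferon-stimulated response element (TTTC, any 2 bases, TTTC) was in 3 of 27 (11.1%) against 3.44% of all, the NF-kB site (GGG, any 2 bases, TTTCC) in 1 of 27 (3.70%) against 1.63% of all, GAGGAAGT of PU.1 in 1 of 27 (3.70%) against 3.20% of all and CAAAGTCCA of HNF4 in 0 of 27 (0%) against 0.475% of all. The metal response element was in 5 of 27 (18.5%) against 12.6% of all as TGCACNC and in 1 of 27 (3.70%) against 15.4% of all as TGCGCNC. The regions of the 3 called genes that the table holds are shown with that of C1ra, which held 3 of the motifs, as did C7 and Vtn. Capitals mark the matched letters: the PU.1 site on the opposite strand in C1qc (chr4:136892865-136893164, minus strand), and in C1ra (chr6:124512371-124512670, plus strand) GTTAAT, then the C/EBP sites, then the STAT site. The capitals of different motifs did not overlap. No motif searched was found in C1qb (chr4:136886151-136886450, minus strand) or Mbl1 (chr14:41151206-41151505, plus strand).
C1qb promoter: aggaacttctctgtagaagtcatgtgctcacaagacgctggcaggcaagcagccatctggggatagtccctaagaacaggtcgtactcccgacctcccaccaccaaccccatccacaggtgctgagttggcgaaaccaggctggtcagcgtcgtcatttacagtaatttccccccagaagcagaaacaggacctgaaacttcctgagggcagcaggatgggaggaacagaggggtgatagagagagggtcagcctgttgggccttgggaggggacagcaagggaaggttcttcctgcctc
C1qc promoter: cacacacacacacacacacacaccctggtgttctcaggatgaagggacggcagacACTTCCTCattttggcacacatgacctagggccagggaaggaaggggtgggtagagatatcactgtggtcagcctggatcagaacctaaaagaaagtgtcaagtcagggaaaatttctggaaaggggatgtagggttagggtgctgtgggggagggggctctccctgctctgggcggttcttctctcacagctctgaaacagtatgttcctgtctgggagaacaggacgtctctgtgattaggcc
C1ra promoter: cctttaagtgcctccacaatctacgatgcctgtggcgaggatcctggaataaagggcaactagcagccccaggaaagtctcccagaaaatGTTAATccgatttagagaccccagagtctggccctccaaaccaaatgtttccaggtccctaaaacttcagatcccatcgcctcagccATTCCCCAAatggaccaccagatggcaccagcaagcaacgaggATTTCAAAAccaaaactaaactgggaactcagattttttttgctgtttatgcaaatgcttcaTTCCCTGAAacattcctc
Mbl1 promoter: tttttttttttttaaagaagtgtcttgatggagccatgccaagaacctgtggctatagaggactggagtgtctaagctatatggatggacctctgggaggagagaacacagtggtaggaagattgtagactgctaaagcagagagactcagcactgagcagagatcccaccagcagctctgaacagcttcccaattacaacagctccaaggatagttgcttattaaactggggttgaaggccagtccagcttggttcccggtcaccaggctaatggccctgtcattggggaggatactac

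In the cadmium libraries 4 of the 28 tested genes were called higher and 0 lower at an adjusted p of 0.05 (limma, Benjamini-Hochberg over all tested genes): C1qb, C1qc, C4b and Mbl1. That is 14.3% of the tested complement genes, where 7.86% of all tested genes were called higher and 1.82% lower. These shares of all genes were 3.9% higher and 2.95% lower with median-of-ratios scaling, 3.5% and 3.01% with quantile normalization, and 3.85% and 4.98% on the deposited log2 scale. In the same order 1, 2 and 1 of the 28 complement genes were called higher there and 0 lower, so the excess depends on the scaling. 14 of 28 had an unadjusted p under 0.05, all higher, against 21.2% of all genes. 27 of 28 had a positive log2 fold change, against 66.7% of all tested genes, and their median of 0.36 lay 0.27 above that of all genes. Over the alternative fits of these 28 genes, 23 (deposited log2 values) to 28 (without control replicate 1) were positive. In 18 of 28 all 3 cadmium libraries lay above all 3 control libraries, against 26.4% of all tested genes, and in 0 of 28 below (7.24% of all). After median-of-ratios scaling it was 10 of 28 above (15.9% of all) and 0 below (15.2% of all). C1s1, Mbl2, Masp1, Cfb, Hc, C8g, C9 and Serping1 were apart in FPKM and overlapped after that scaling. With the label's batch number as a block limma called 0 of 28, where 1.86% of all tested genes were called higher and 0.646% lower, and 13 of 28 had an unadjusted p under 0.05. Without control replicate 3 or any 1 cadmium library limma also called 0 (0.787% to 4.28% of all genes higher), with 10 to 15 of 28 at an unadjusted p under 0.05. In these fits and with the block the share of all genes at that unadjusted p was not counted. The differences thus point mostly one way, and the calls for single genes depend on the fit.

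**Figure D1:**
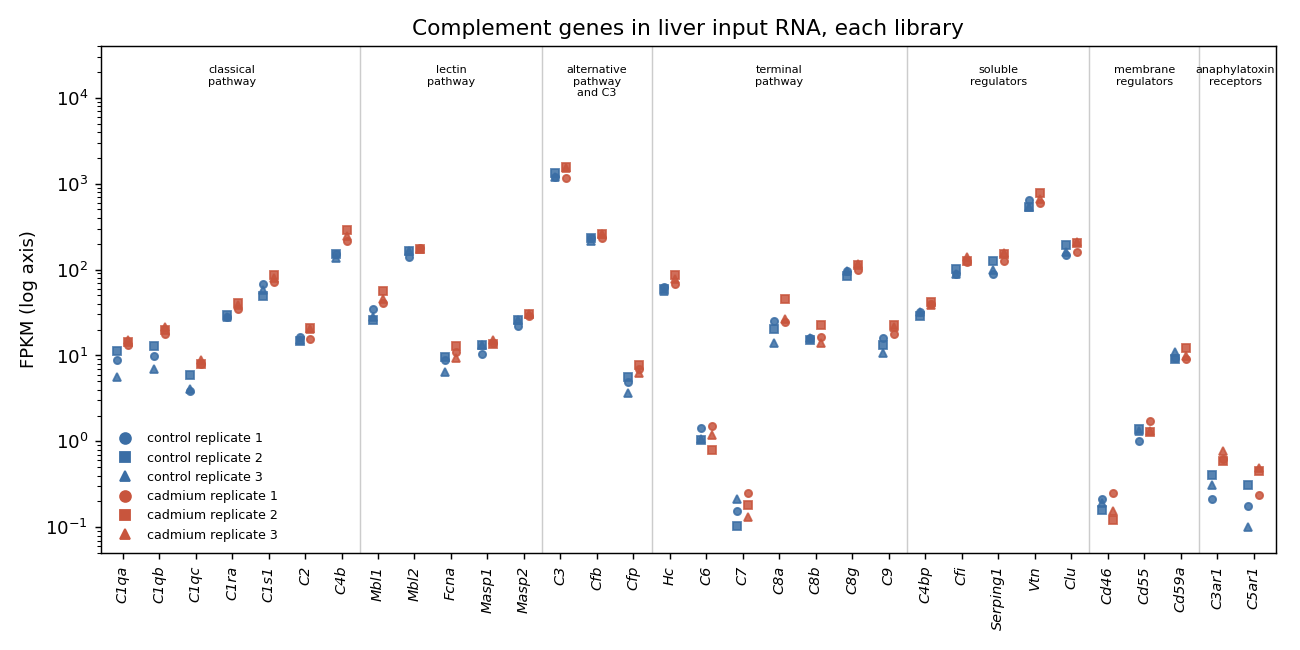
FPKM on a log axis of 32 complement genes in each library, grouped by role; blue points are control and red points cadmium libraries, and the marker shape gives the replicate number. Cfd, at 0 in all 3 control libraries, is left out; C3 at 1235 FPKM in control stands highest and C7 at 0.158 lowest.

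The levels spanned a wide range. C3, the convergence point of all pathways, was highest in both groups, followed by Vtn (vitronectin, which blocks the terminal pore) and Cfb (factor B, the protease subunit of the alternative C3 convertase). These 3 genes made up 64.0% to 65.2% of the summed FPKM of all 33 in control and 59.8% to 61.9% in cadmium. In the control order of levels 21 of the 32 neighbouring pairs overlapped between libraries, and C3, Vtn and Cfb each stood clear of the next. C4b, the gene for C4, passed from place 6 in control to place 4 in cadmium, and its share of the sum went from 4.63% ± 0.192 to 6.48% ± 0.357. The share of C3 was 39.2% ± 1.40 and 36.8% ± 1.46. The plot of levels by role shows this spread, with C3 near the top and C6, C7 and the membrane proteins Cd46 and Cd55 near the bottom.

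The classical pathway held 3 of the 4 called genes and all 7 of its genes were tested. By comparison 7.86% of all tested genes were called higher, and whether the roles differ was not tested. C1qa, C1qb and C1qc encode the A, B and C chains that assemble into C1q, and lie side by side on the minus strand of chromosome 4 within 18.7 kb (GRCm38, 136880129 to 136898803). C1qb was at 9.77, 13.0 and 6.90 FPKM in the control libraries against 18.0, 19.8 and 21.7 in the cadmium libraries. All 3 cadmium libraries lay above all 3 control libraries, and control replicate 3 was the lowest. C1qb rose from 9.88 ± 3.04 FPKM to a cadmium mean of 19.8 ± 1.85 (a log2 fold change of 0.97 with an SE of 0.20 and an adjusted p of 0.0295). C1qc was at 3.84, 5.86 and 4.03 FPKM in the control libraries against 8.03, 7.90 and 8.80 in the cadmium libraries, again without overlap. It rose from 4.58 ± 1.11 FPKM to a cadmium mean of 8.24 ± 0.484 (a log2 fold change of 0.75 with an SE of 0.14 and an adjusted p of 0.0235). C1qa was at 8.96, 11.2 and 5.64 FPKM in the control libraries against 13.1, 14.2 and 15.3 in the cadmium libraries. It showed the same order of groups but did not pass the test (8.59 ± 2.78 FPKM without and 14.2 ± 1.07 with cadmium; a log2 fold change of 0.71 with an SE of 0.21 and an adjusted p of 0.0844, 95% interval 0.21 to 1.21). Without control replicate 2 the log2 fold change of C1qa was 0.90 and the adjusted p 0.0474, and without control replicate 3 they were 0.46 and 0.115. Within the batches 1 to 3 the differences on the log2(FPKM + 1) scale were 0.82, 0.58 and 1.52 for C1qb and 0.90, 0.38 and 0.96 for C1qc, positive in each batch. With the batch as a block the adjusted p was 0.0774 for C1qb and 0.0668 for C1qc. In bulk RNA, more cells of a type and more RNA per cell cannot be told apart.

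C1q carries the proteases C1r and C1s, whose substrates are C4 and C2. C1ra encodes the protease that activates C1s, and C1s1 the protease that cleaves C4 and C2. C1ra was at 28.2, 29.5 and 27.9 FPKM in the control libraries against 35.1, 40.5 and 39.1 in the cadmium libraries. The groups did not overlap, and the adjusted p was 0.0593, or 0.0389 in the limma fit without trended, robust moderation (log2 fold change 0.41, SE 0.11). C1s1 was at 58.8 ± 9.65 FPKM without and 79.5 ± 7.46 with cadmium (adjusted p = 0.126), and C2, which supplies the protease of the classical C3 convertase, at 15.6 ± 0.865 FPKM without and 18.9 ± 2.96 with cadmium (adjusted p = 0.275). C4b, whose product is cleaved and bound to the target surface, was at 152, 151 and 135 FPKM in the control libraries against 214, 289 and 244 in the cadmium libraries. Cadmium replicate 2 was the highest, and the lowest cadmium library lay well above the highest control library. C4b rose from 146 ± 9.76 FPKM to a cadmium mean of 249 ± 37.5 (a log2 fold change of 0.76 with an SE of 0.16 and an adjusted p of 0.0312; chromosome 17, 34728380 to 34743882), with differences of 0.49, 0.93 and 0.86 in batches 1 to 3 and an adjusted p of 0.0726 with the block. C4a, the near-identical neighbour known as sex-limited protein, was at 7.06 ± 0.822 FPKM without and 11.0 ± 0.823 with cadmium (adjusted p = 0.0231, with the block 0.0584). Reads can be shared between C4a and C4b, as between C1ra and C1rb and between C1s1 and C1s2, and the sources used here do not say how such reads were counted. C1s2 was at 2.26 ± 0.350 FPKM without and 3.92 ± 0.426 with cadmium (adjusted p = 0.0209) and C1rb at 9.48 ± 0.291 FPKM without and 12.4 ± 1.26 with cadmium (adjusted p = 0.0738).

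**Figure D2:**
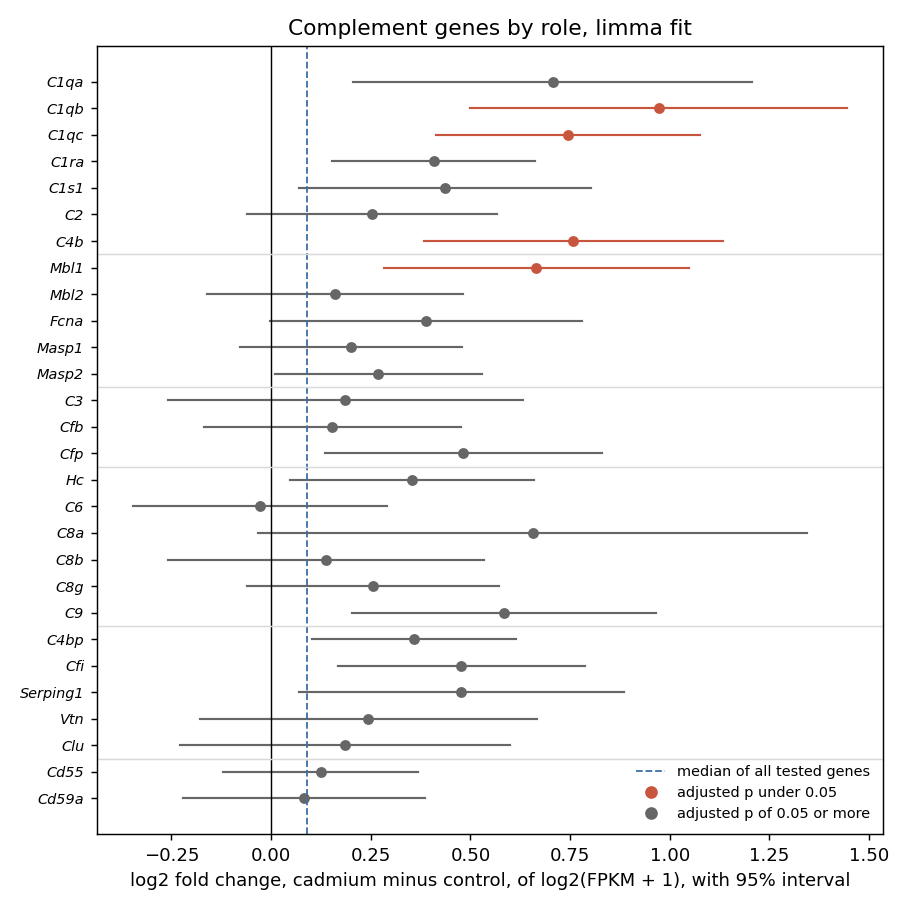
Log2 fold change (cadmium minus control) of the 28 tested complement genes on the log2(FPKM + 1) scale, ordered by role with grey lines between roles; bars are 95% intervals of the limma fit, red marks an adjusted p under 0.05 and the dashed line the median of all tested genes. The 4 red genes lie between 0.67 and 0.97, and C6 at -0.029 is the lowest.

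Among the lectin pathway genes Mbl1 was the member called, 1 of 5 tested, where 7.86% of all tested genes were called higher. Mbl1 and Mbl2 encode the mannose-binding lectins, Fcna encodes ficolin A, and Masp1 and Masp2 the proteases they carry. Mbl1 was at 34.4, 25.9 and 28.1 FPKM in the control libraries against 40.4, 55.7 and 46.0 in the cadmium libraries. The groups did not overlap, and cadmium replicate 2 was the highest. Mbl1 rose from 29.5 ± 4.45 FPKM to a cadmium mean of 47.4 ± 7.70 (a log2 fold change of 0.67 with an SE of 0.16 and an adjusted p of 0.0463; chromosome 14, 41151458 to 41159601), with 0.23, 1.08 and 0.69 in batches 1 to 3 and an adjusted p of 0.121 with the block. Mbl2, present at a level several times that of Mbl1, was at 139, 164 and 166 FPKM in the control libraries against 178, 173 and 172 in the cadmium libraries. All its cadmium libraries lay above the control ones by a small margin in FPKM, and the groups overlapped after median-of-ratios scaling. The limma log2 fold change of Mbl2 was 0.16 (95% interval -0.16 to 0.48, adjusted p = 0.500), and it was -0.018 in the deposited log2 values. Whether Mbl1 and Mbl2 differ in response was not tested. Fcna was at 8.23 ± 1.65 FPKM without and 11.0 ± 1.77 with cadmium (adjusted p = 0.187), Masp1 at 12.3 ± 1.65 FPKM without and 14.2 ± 0.634 with cadmium (adjusted p = 0.325) and Masp2 at 24.6 ± 2.16 FPKM without and 29.8 ± 1.09 with cadmium (adjusted p = 0.173). The soluble collectins outside the list showed 1 call of 2: Colec11, a sugar-binding activator of the MASP proteases, rose from 8.09 ± 0.850 FPKM to a cadmium mean of 13.1 ± 0.760 (a log2 fold change of 0.63 with an SE of 0.10 and an adjusted p of 0.0162, or 0.0486 with batch as a block), and Colec10 was at 3.00 ± 0.426 FPKM without and 4.05 ± 0.425 with cadmium (adjusted p = 0.0967).

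The central component and the alternative pathway gave 0 calls of 3 tested by limma, with 1, Cfp, at an unadjusted p under 0.05. The shares of all tested genes were 7.86% called higher and 21.2% higher at an unadjusted p under 0.05. C3 was at 1187, 1319.6 and 1199 FPKM in the control libraries against 1176, 1560.0 and 1508 in the cadmium libraries. Cadmium replicate 1 lay below all 3 control libraries and the other cadmium libraries above them, so the groups overlapped (log2 fold change 0.19, 95% interval -0.26 to 0.63, adjusted p = 0.578). Cfb was at 229.8, 232 and 216 FPKM in the control libraries against 233, 259.8 and 262 in the cadmium libraries. Its groups parted narrowly in FPKM and overlapped after median-of-ratios scaling. The limma log2 fold change of Cfb was 0.15 (95% interval -0.17 to 0.48, adjusted p = 0.522), and it was -0.026 in the deposited log2 values. Cfb and C2 are both overlapped on their own strand by Gm20547, a predicted gene, so their reads may be shared with it. In all, 13 of the 33 genes overlap another annotated gene, mostly on the opposite strand, and none of the 4 called genes does. Cfp, properdin, which stabilises the alternative convertase and comes from myeloid cells, was at 4.97, 5.67 and 3.64 FPKM in the control libraries against 6.99, 7.78 and 6.18 in the cadmium libraries. Its groups did not overlap (a log2 fold change of 0.48 with an SE of 0.15 and an adjusted p of 0.0877). Cfd, factor D, made chiefly by adipocytes, had recovered reads of 0, 0 and 0 in control and 3, 2 and 0 in cadmium. A count of 0 allows up to 3 reads in a library by counting error alone, so no difference was detectable at this depth. Adipoq, an adipocyte marker, was at 0 to 0.0518 FPKM.

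No terminal pathway gene of 6 tested was called by limma, where 2 had an unadjusted p under 0.05, Hc and C9. Of all tested genes 7.86% were called higher and 21.2% were higher at an unadjusted p under 0.05. Hc encodes C5 and was at 63.0, 59.5 and 56.7 FPKM in the control libraries against 68.2, 85.3 and 76.9 in the cadmium libraries. The groups did not overlap in FPKM but did after median-of-ratios scaling (a limma log2 fold change of 0.35 with an SE of 0.13 and an adjusted p of 0.136). C9, which polymerises into the pore, was at 16.1, 13.3 and 10.7 FPKM in the control libraries against 17.5, 22.4 and 21.2 in the cadmium libraries. Its lowest cadmium library exceeded its highest control library in FPKM but not after median-of-ratios scaling. C9 had a limma log2 fold change of 0.58 with an SE of 0.16 and an adjusted p of 0.0666. Without control replicate 1 its adjusted p was 0.0387. C8 is built from the chains of C8a, C8b and C8g. C8a was at 25.0, 20.5 and 13.8 FPKM in the control libraries against 24.6, 45.0 and 26.5 in the cadmium libraries. Cadmium replicate 2 stood far above the others and the groups overlapped (adjusted p = 0.202, 95% interval -0.032 to 1.35). C8b had its highest value in the same library, 22.8 FPKM against 14.1 to 16.2 in the other 5, and without it the log2 fold change of C8b was -0.050 in place of 0.14. That of C8a without the same library was 0.392 in place of 0.66. C8g was at 92.1 ± 7.63 FPKM without and 110.2 ± 8.99 with cadmium (adjusted p = 0.273). C6, which binds C5b, was low in both groups, at 1.19 ± 0.218 FPKM without and 1.16 ± 0.364 with cadmium, and was the only tested member with a negative log2 fold change (-0.029, 95% interval -0.35 to 0.29), which was 0.10 without cadmium replicate 2. C7, the next protein to join, was at 0.158 ± 0.0561 FPKM without and 0.189 ± 0.0596 with cadmium, with recovered reads of 30, 17 and 31 in control and 35, 42 and 29 in cadmium. In these livers C6 and C7 were thus at a small fraction of the level of C8g, C8a or C9.

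The soluble regulators gave 0 calls of 5 by limma, with 3 at an unadjusted p under 0.05, and 3 of them had groups without overlap. Over all tested genes 7.86% were called higher and 21.2% were higher at an unadjusted p under 0.05. All cadmium libraries lay above in 26.4% of them in FPKM, and in 15.9% after median-of-ratios scaling. Cfi, factor I, the protease that cuts C3b and C4b, was at 89.2, 101 and 87.9 FPKM in the control libraries against 123, 124 and 141 in the cadmium libraries. Its adjusted p was 0.0656 (log2 fold change 0.48, SE 0.13), or 0.0356 in the limma fit without trended, robust moderation. C4bp, a cofactor of factor I, was at 32.2, 29.0 and 32.4 FPKM in the control libraries against 39.9, 42.3 and 38.5 in the cadmium libraries (a log2 fold change of 0.36 with an SE of 0.11 and an adjusted p of 0.0854, or 0.0499 without trended, robust moderation). Serping1, the C1 inhibitor that stops C1r, C1s and the MASPs, was at 89.8, 126 and 97.7 FPKM in the control libraries against 127, 152 and 157 in the cadmium libraries. Its highest control library nearly met its lowest cadmium library in FPKM, and the groups overlapped after median-of-ratios scaling. Serping1 had a limma log2 fold change of 0.48 with an SE of 0.17 and an adjusted p of 0.131. Vtn was at 571 ± 56.4 FPKM without and 679.5 ± 97.9 with cadmium (adjusted p = 0.437) and Clu, clusterin, which also blocks the terminal pore, at 168 ± 23.5 FPKM without and 192 ± 28.5 with cadmium (adjusted p = 0.549). Both overlapped between groups.

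Of the membrane regulators Cd59a was at a level near that of C1qb in control, while Cd55, Cd46 and the receptors were low. By limma 0 of the 2 tested regulators were called, with 0 at an unadjusted p under 0.05. Over all tested genes these shares were 7.86% called higher and 21.2% higher at that unadjusted p. Cd59a, an inhibitor of pore assembly, was at 9.77 ± 1.04 FPKM without and 10.4 ± 1.62 with cadmium (95% interval -0.22 to 0.39, adjusted p = 0.736), and its log2 fold change of 0.082 became -0.029 after median-of-ratios scaling. Cd55, decay-accelerating factor, was at 1.25 ± 0.204 FPKM without and 1.45 ± 0.247 with cadmium (95% interval -0.12 to 0.37, adjusted p = 0.498). Cd46, a cofactor of factor I that the mouse expresses mainly in testis, was at 0.187 ± 0.0273 FPKM without and 0.178 ± 0.0679 with cadmium. C3ar1, the receptor for C3a, was at 0.211, 0.409 and 0.310 FPKM in the control libraries against 0.623, 0.588 and 0.764 in the cadmium libraries. The groups did not overlap, and the ratio of means was 2.12. In the fit that admits genes from 0.1 FPKM its adjusted p was 0.0701 (log2 fold change 0.34, a value that the added 1 shrinks at such levels). C5ar1, the receptor for C5a, was at 0.175, 0.308 and 0.101 FPKM in the control libraries against 0.239, 0.449 and 0.490 in the cadmium libraries. Cadmium replicate 1 lay below the highest control library, and the adjusted p in the same fit was 0.234.

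C1q, properdin and the 2 receptors are myeloid products, so macrophage and neutrophil markers are given beside them. Of all tested genes 7.86% were called higher and 1.82% lower, or 1.86% and 0.646% with the block. Of 11 Kupffer cell markers 9 were tested, and 2 were called higher (Adgre1 and Cd68) and 1 lower (Cd163, the hemoglobin-haptoglobin receptor). Their summed level was 28.3 to 48.1 FPKM in control and 48.2 to 57.2 in cadmium. Of 12 markers of monocytes and recruited macrophages 3 genes were tested and 2 called higher (Lyz2 and Lgals3), with a summed level of 16.1 to 25.3 FPKM in control and 37.5 to 53.2 in cadmium. Of 10 neutrophil markers 8 were matched, 1 was tested and called higher (S100a9, adjusted p = 0.0657 with the block), and the sum was 0.365 to 1.104 FPKM in control and 1.79 to 2.20 in cadmium, with S100a8 at 0 in 1 and S100a9 at 0 in 2 of the control libraries. Lgals3 and S100a9 were below 1 FPKM in every control library and passed the filter through the cadmium libraries alone. Cd68, at 0.888, 1.54 and 0.527 FPKM in the control libraries, also passed only with its cadmium libraries. These counts of called markers are thus shaped by the filter. With the block Adgre1, Lyz2 and Lgals3 were still called higher and Cd163 lower, and Cd68 was not called (adjusted p = 0.0668). No defining macrophage marker was at 0 in any library: Clec4f, the Kupffer cell lectin, was at 10.1 ± 1.09 FPKM without and 12.2 ± 1.96 with cadmium, Timd4 at 0.568 ± 0.165 FPKM without and 0.0913 ± 0.0216 with cadmium, Vsig4 at 3.42 ± 1.41 FPKM without and 2.84 ± 1.08 with cadmium, Ly6c2 at 0.0943 ± 0.00150 FPKM without and 0.154 ± 0.0426 with cadmium and Ccr2 at 0.125 ± 0.0183 FPKM without and 0.471 ± 0.160 with cadmium. The ratio of means was 1.65, 2.01 and 1.80 for C1qa, C1qb and C1qc, 1.64 for Csf1r, the macrophage growth factor receptor, 2.34 for Adgre1, 2.27 for Lyz2 and 3.24 for Cd68. It was 1.21 for Clec4f, 0.161 for Timd4 and 0.0431 for Cd163. C1q thus stood higher together with Adgre1, Cd68, Lyz2 and Csf1r, though C1qa and Csf1r were not called by limma (adjusted p = 0.0844 and 0.0586). Cd5l, a further Kupffer cell marker, also lay higher in all cadmium libraries, with a ratio of means of 1.86. It was not called by limma either (adjusted p = 0.0931). Of the 9 tested Kupffer cell markers 4 overlapped between groups, Clec4f, Vsig4, Marco and Folr2, as did Spp1 of the recruited macrophage markers. Timd4 and Cd163 lay lower in every cadmium library. The part of macrophages in the C1q values was not tested.

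**Figure D3:**
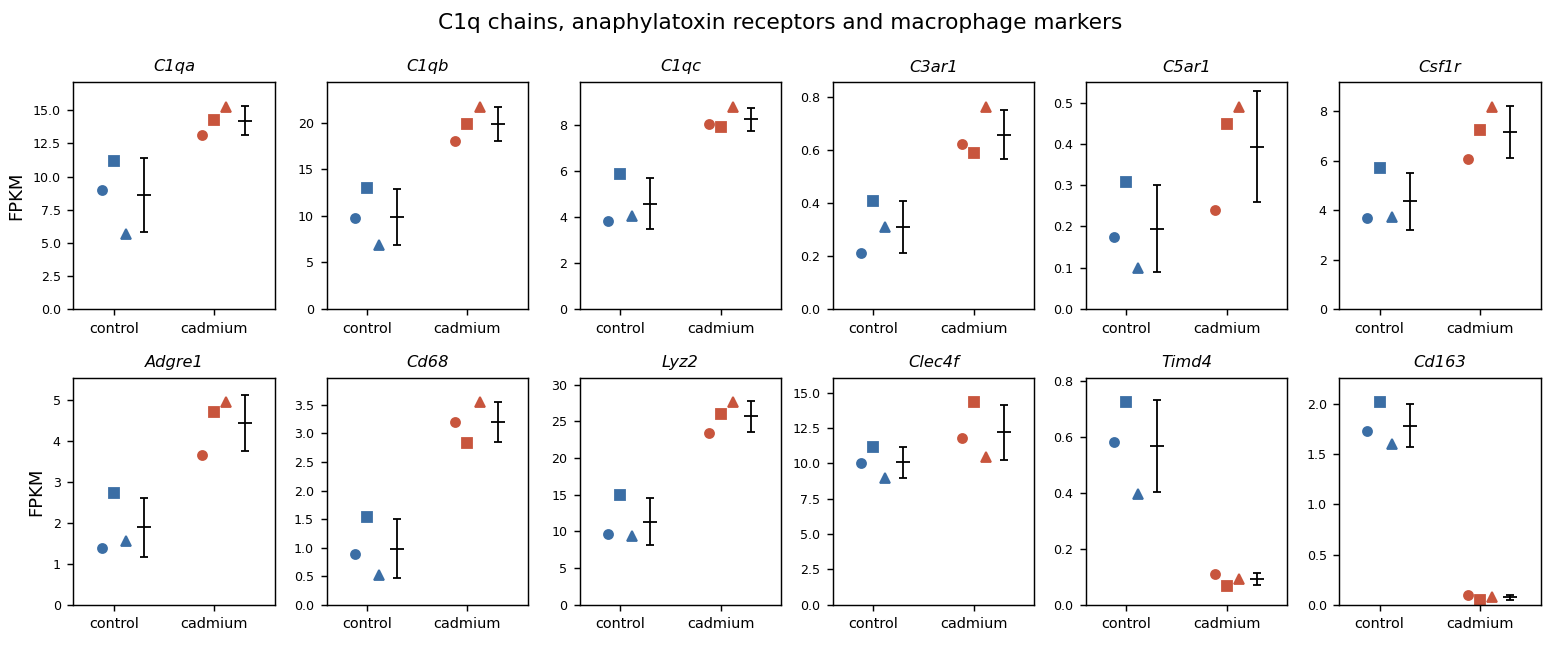
FPKM in each library of the C1q chains, the anaphylatoxin receptors and 7 macrophage markers, each panel on its own axis from 0; marker shape gives the replicate number and black bars the mean and SD of 3 libraries. The C1q chains, Csf1r, Adgre1, Cd68 and Lyz2 lie higher in all cadmium libraries, Timd4 and Cd163 lower.

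Cells of the vessel wall and stroma also make C1r, C1s, C1 inhibitor and C4, and their markers are given beside these genes. Among all tested genes 7.86% were called higher, or 1.86% with the block. Of 9 tested stellate cell and fibroblast markers 7 were called higher and 0 lower (Col1a1 and Lrat among them), or 3 with the block (Col1a1, Col1a2 and Col3a1), with a summed level of 16.5 to 24.4 FPKM in control and 37.9 to 41.8 in cadmium. Col1a1, Col1a2 and Lum, 3 of the 7, were below 1 FPKM in every control library and were tested only because of their cadmium libraries. Of 10 sinusoidal endothelial markers 2 were called higher (Stab1 and Lyve1, adjusted p = 0.0705 and 0.109 with the block), with sums of 35.0 to 49.7 FPKM in control and 46.1 to 61.5 in cadmium. Lyve1, at 0.401, 0.889 and 1.09 FPKM in the control libraries, passed the filter only with its cadmium libraries. The part of these stromal and vessel wall cells in the values of C4b, C1ra, C1s1 or Serping1 was not tested. Of 15 hepatocyte markers 1 was called higher (Fgb, also on the acute phase list, adjusted p = 0.110 with the block) and 0 lower. In 2 of the 15 all cadmium libraries lay above all control libraries, and in 1, Pck1, all lay below (adjusted p = 0.0657 in the limma fit). The other 12 overlapped, as did the sums, 22752 to 31825 FPKM in control and 23885 to 33239.5 in cadmium. The summed levels of markers of other cells were 1.31 to 1.52 FPKM in control and 1.81 to 2.22 in cadmium for dendritic cells, 0.830 to 1.80 FPKM in control and 1.31 to 1.80 in cadmium for lymphocytes, 6.23 to 9.96 FPKM in control and 7.56 to 25.7 in cadmium for bile duct cells, 1.45 to 2.30 FPKM in control and 2.55 to 3.18 in cadmium for adipocytes, 0.218 to 0.303 FPKM in control and 0.0987 to 0.555 in cadmium for mesothelium, 96.6 to 313 FPKM in control and 136 to 410.0 in cadmium for red cells and platelets and 0.0945 to 0.285 FPKM in control and 0.129 to 0.213 in cadmium for pancreas. Of their 6 tested genes 1 was called, Lpl of the adipocyte list (higher, below 1 FPKM in every control library, adjusted p = 0.0516 with the block), and Adipoq was at 0 in 4 libraries.

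Complement genes outside the list of 33 were counted in the same fit, where 7.86% of all tested genes were called higher and 1.82% lower. Of 25 matched symbols 18 were tested, and 6 were called higher and 0 lower, among them C4a, C1s2, Colec11, Cd93 and Itgb2. Cd93, a membrane protein of endothelial and myeloid cells once described as a C1q receptor, rose from 0.693 ± 0.206 FPKM to a cadmium mean of 1.65 ± 0.164 (a log2 fold change of 0.65 with an SE of 0.11 and an adjusted p of 0.0151, or 0.0474 with batch as a block). All 3 control libraries of Cd93 were below 1 FPKM, so it entered the test through its cadmium libraries alone. Itgb2, the beta chain of complement receptors CR3 and CR4, rose from 1.00 ± 0.283 FPKM to a cadmium mean of 2.02 ± 0.0293 (adjusted p = 0.0190, with the block 0.0606). Itgb2 was at 0.832, 1.33 and 0.849 FPKM in the control libraries, so it passed the filter only with its cadmium libraries. With the block 2 of 18 were called, Colec11 and Cd93, where 1.86% of all tested genes were called higher. Without cadmium replicate 3 the limma count was 0 (0.787% of all genes higher), with 8 at an unadjusted p under 0.05, a threshold not counted over all genes there. The limma count was 2 without control replicate 3 and 3 without cadmium replicate 2 (3% and 4.28% of all genes higher). Vsig4, the macrophage receptor for C3b fragments, and C1qbp, a mitochondrial protein that binds C1q, were not called (adjusted p = 0.714 and 0.954).

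Acute phase genes outside complement are induced in hepatocytes by the same cytokines as several complement components. Of 21 listed 20 were tested, and 8 were called higher and 0 lower, where 7.86% of all tested genes were called higher and 1.82% lower. The median log2 fold change of the 20 lay 0.56 above that of all genes, beside 0.27 for the complement genes. Cp, ceruloplasmin, rose from 42.3 ± 1.69 FPKM to a cadmium mean of 63.5 ± 2.30 (adjusted p = 0.0232), Apcs, the pentraxin serum amyloid P, from 25.6 ± 4.00 FPKM to a cadmium mean of 43.4 ± 4.60 (adjusted p = 0.0271) and Fgg, a fibrinogen chain, from 413 ± 37.1 FPKM to a cadmium mean of 761 ± 109 (adjusted p = 0.0277). With the block 1 was called, where 1.86% of all tested genes were called higher. This gene, Saa2, was below 1 FPKM in every control library and tested through its cadmium libraries alone. It was at 0.726 ± 0.0713 FPKM without and 6.42 ± 2.48 with cadmium, a ratio of means of 8.84. Without cadmium replicate 3 the limma count was 0 (0.787% of all genes higher), with 10 at an unadjusted p under 0.05, a threshold not counted over all genes there. It was 1 without control replicate 2 (4.33% of all genes higher) and 2 without control replicate 3 (3%). It was 3 without cadmium replicate 1 or 2 (2.5% and 4.28%) and 4 without control replicate 1 (5.44%). Hp, haptoglobin, and Hamp, hepcidin, were not called (adjusted p = 0.929 and 0.992).

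In the authors' deposited table, made with a test that the sources used here do not name, 5 of the 33 genes had an FDR under 0.05, all higher in cadmium, where 3.72% of its 34352 genes did. In the authors' deposited table the 5 were C1qb (FDR = 7.69e-04), C1qc (8.84e-04), C3ar1 (0.00676), C4b (0.00786) and Mbl1 (0.0405). Its log2 fold changes were 0.87 for C1qb, 0.69 for C1qc, 0.93 for C3ar1, 0.58 for C4b, 0.50 for Mbl1 and 0.006 for C3 in the authors' deposited table. C1qc was the gene called in most alternative fits, in 9 of 16, with adjusted p from 0.0160 to 0.111. C1qb was called in 5 (0.0236 to 0.146), C4b in 4 (0.0236 to 0.119) and Mbl1 in 4 (0.0376 to 0.149). The log2 fold changes of these 4 genes stayed positive in all 16 alternatives, from 0.50 to 1.17. The genes were picked by their calls in the same libraries that the alternatives reuse, so the shared sign is not independent support.

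**Figure D4:**
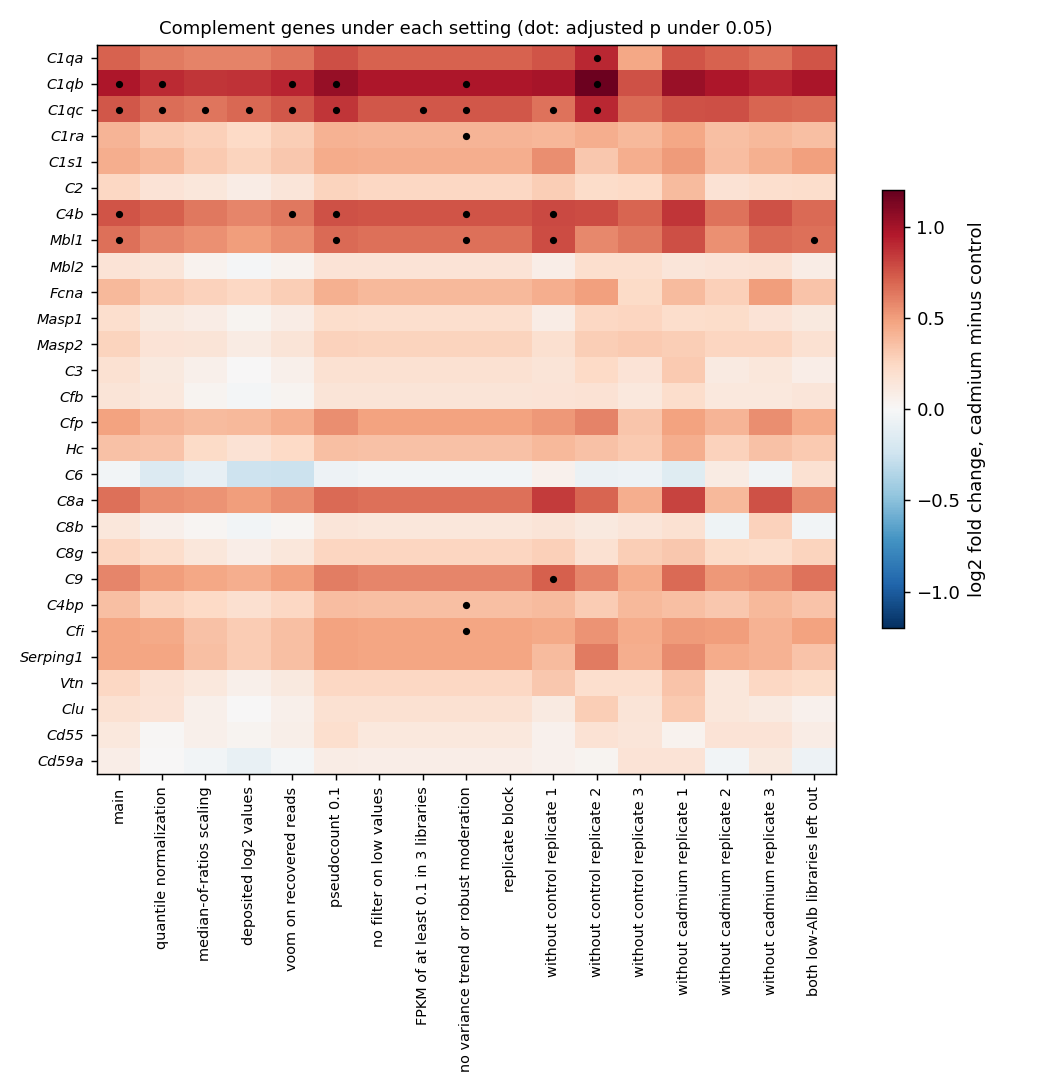
Log2 fold change (cadmium minus control) of the 28 tested complement genes under the main fit and 16 alternatives, in colour from blue (lower in cadmium) to red (higher), with a dot where the adjusted p was under 0.05. The C1qc row carries the most dots, and the columns for the replicate block, for no filter and for fits without control replicate 3 or any 1 cadmium library carry none.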

How the data were processed

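RNA of the input fraction was measured in 6 liver libraries, 3 per group. The first table the authors deposited holds FPKM for 55335 genes. The second holds log2 values for 34352 genes, with the authors' group means, log2 fold changes, p-values and FDR. Undoing the deposited log2 and subtracting 1 gave whole multiples of 1 step per library (100% of values above 0 within 0.05 of a read), so reads were recovered from it. The submitters' processing notes list mm10 and DESeq2, MACS2 2.1.1, SAMtools 1.3.1, STAR 2.7.1a and cutadapt 1.1.8, with no roles. The counter, its strand setting and the test behind the authors' p-values are not named.

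limma 3.58.1 (R 4.3.3) was fitted to log2(FPKM + 1) of the 9908 genes that reached 1 FPKM in 3 or more libraries, without a block, with trended, robust moderation, two-sided, and Benjamini-Hochberg adjustment over all of them. Fold changes are on that scale and understate changes of low genes. The script was tested on simulated data. Alternatives changed the scaling, the pseudocount, the filter, the moderation, the block or the libraries. The members and gene lists were chosen with earlier results of these data known. Every member is named, and of other lists the 4 genes of smallest p and set defining markers; genes named beyond these were chosen after their values were seen. The labels give the replicate number as batch, so numbers pair the libraries; deviations of same-numbered libraries correlated at -0.21, -0.23 and -0.02 across genes. The values of 1 gene are not reported here. Coordinates are from GENCODE M21 (GRCm38).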

Additional observations from a re-analysis of the deposited data

How the results depend on the processing

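The count of complement genes called higher, 4 in the fit as reported, was 2 after quantile normalization, 1 after median-of-ratios scaling, 1 in the deposited log2 values, 3 with voom on recovered reads, 1 with a filter at 0.1 FPKM, 0 without a filter (16 at an unadjusted p under 0.05), 7 without trended, robust moderation (C1ra, Cfi and C4bp added), and 0 to 4 when 1 library was left out. In these fits 3.5%, 3.9%, 3.85%, 5.11%, 3.20%, 0.0902%, 6.33% and 0.787% to 5.44% of all genes tested were called higher. With the replicate block, which rests on the batch in the labels, it was 0, other complement genes gave 2 calls in place of 6, acute phase genes 1 in place of 8, and all genes 248 in place of 959. Without control replicate 1 and cadmium replicate 2, the libraries low in Alb, the counts were 1 (Mbl1) of 28 complement genes, where 4.82% of all genes were called higher, 3 for other complement genes and 2 for acute phase genes. Leaving out 1 library gave 0 to 6 other complement genes, 0 to 4 acute phase genes and 101 to 781 of all genes. Acute phase calls were 4 after quantile normalization, 5 after median-of-ratios scaling and 4 in the deposited log2 values. Without a filter 34351 genes were tested and 37 called, 0 of them in the 3 lists. How many of all genes reached an unadjusted p under 0.05 without a filter was not counted. No complement gene was called lower in any fit run. 

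The direction of 5 uncalled genes changed under some alternatives. In the deposited log2 values the log2 fold change was -0.018 for Mbl2, -0.026 for Cfb, -0.035 for C8b and -0.090 for Cd59a. For Cd59a it was -0.029 after median-of-ratios scaling and -0.024 with voom on recovered reads. Without cadmium replicate 2 it was 0.10 for C6, -0.050 for C8b and -0.029 for Cd59a. Without both libraries low in Alb it was 0.18, -0.037 and -0.060 for these genes, and without control replicate 1 it was 0.052 for C6. Leaving out 1 library gave -0.15 to 0.10 for C6, -0.050 to 0.28 for C8b and -0.029 to 0.16 for Cd59a. The cause of these changes was not tested. Over the 28 genes and 16 alternatives 388 fits kept direction and side of the threshold, 42 ended a call and 5 added one.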

Other observations

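Itgax and Susd4, complement genes below the level needed for the test as reported, were chosen after their values were seen. Itgax, the alpha chain of complement receptor CR4 and a marker of dendritic cells and some macrophages, was at 0.0694, 0.104 and 0.140 FPKM in the control libraries against 0.507, 0.523 and 0.629 in the cadmium libraries, without overlap between groups (adjusted p = 0.0202 in the limma fit with the filter at 0.1 FPKM). Susd4, a membrane protein that inhibits C3 convertases, was at 1.03, 0.443 and 1.08 FPKM in the control libraries against 0.116, 0.316 and 0.139 in the cadmium libraries. All cadmium libraries lay below all control libraries (log2 fold change -0.62 with the added 1, adjusted p = 0.0712 in the same fit). The authors' deposited table gives Susd4 a log2 fold change of -2.34 with an FDR of 1.72e-07, and Itgax 2.19 with 1.67e-12.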
